A study of Drosophila melanogaster with 14 samples.

Results

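Of the 29537 peaks in 5 lists of Yorkie (Yki), GAGA factor (GAF) and H3K4me3 binding in Drosophila melanogaster, 266 lay on the heterochromatin and unplaced scaffolds of the dm3 genome build. They were taken by name, as every peak on 2LHet, 2RHet, 3LHet, 3RHet, XHet, YHet, U or Uextra, and the other 29271 peaks lay on the chromosome arms. The study used chromatin immunoprecipitation followed by sequencing (ChIP-seq), which recovers the DNA under a protein or histone mark with an antibody, and deposited 1 list of peaks per antibody and tissue. Every sample was Iso1, from whose DNA the fly reference genome was assembled, and the labels name no mutation or treatment. The wing disc lists came from wing imaginal discs of wandering L3 larvae, epithelial sacs from which the adult wing develops (1 Yki library, 2 GAF libraries and 2 of input chromatin). The embryo lists came from whole embryos aged 8 to 16 hours (3 Yki libraries, 3 of GAF, 2 of H3K4me3 and 1 of input), so that each list is an average over many cell types.

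Yki, a coactivator of transcription held in check by Hippo signalling, promotes growth and has no DNA-binding domain of its own, so that it needs partners such as Scalloped. GAF is the product of the gene Trithorax-like. It recognises GA-rich DNA, helps to keep promoters open, and in Drosophila also associates with GA-rich satellite repeats of heterochromatin at mitosis. H3K4me3, histone H3 with 3 methyl groups on lysine 4, is found at the starts of active genes. Heterochromatin is the compact, repeat-rich part of the chromosomes around the centromeres and on the Y chromosome. It is poor in genes, but the genes it holds can be active. In dm3 the scaffolds whose names end in Het were assigned to a chromosome, whereas U and Uextra string together sequences without a place, many of them short and repetitive. A distance along U or Uextra is therefore not a distance along a chromosome.

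The scaffolds held 22 of 6491 Yki peaks in wing discs, 61 of 6328 GAF peaks in wing discs, 97 of 3749 Yki peaks in embryos, 47 of 6470 GAF peaks in embryos and 39 of 6499 H3K4me3 peaks in embryos. Uextra alone held 128 of the 266 peaks and U another 28. Among the scaffolds assigned to a chromosome, 3LHet and 3RHet held 29 each, 2RHet 27, 2LHet 13 and XHet 12. No list had a peak on YHet. A count of 0 allows a share of up to 0.0462% of the Yki wing disc list, 0.0474% of the GAF wing disc list, 0.0800% of the Yki embryo list, 0.0464% of the GAF embryo list and 0.0462% of the H3K4me3 list. The number of fragments behind a peak is unknown, so intervals and limits cover the counting of peaks only.

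**Figure D1:**
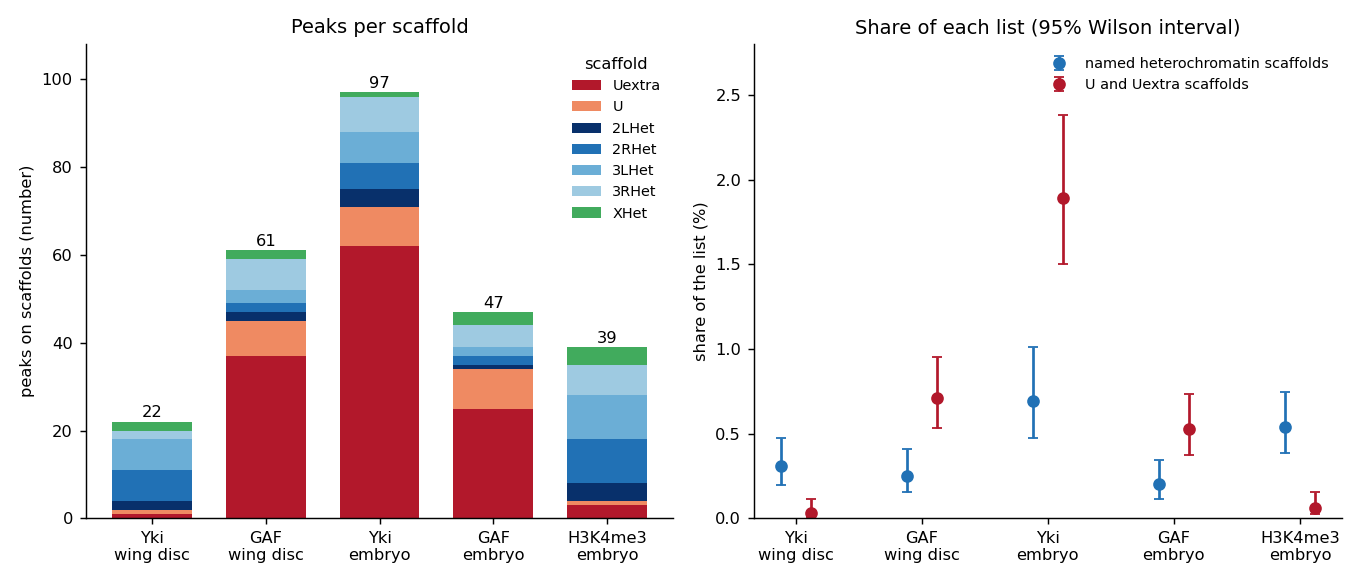
The left panel shows the number of peaks on each scaffold, stacked for each of the 5 lists, with the total above the bar. The right panel shows the share of each list, in percent with 95% Wilson intervals, on the scaffolds assigned to a chromosome (blue) and on U and Uextra (red), where the Yki embryo list stands highest at 1.89%.

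Yki peaks lay on the scaffolds much less often in wing discs than in embryos, and no such difference was detected for GAF. The scaffolds held 0.339% of Yki peaks in wing discs (95% Wilson interval 0.224 to 0.513), against 2.59% in embryos (2.13 to 3.15). The odds ratio was 0.128 (95% interval 0.0805 to 0.204), with a two-sided Fisher's exact test p of 5.12e-23 after Benjamini-Hochberg adjustment over 6 comparisons of lists. They held 0.964% of GAF peaks in wing discs (0.751 to 1.24), against 0.726% in embryos (0.547 to 0.965). That odds ratio was 1.33 (0.908 to 1.95; adjusted Fisher's exact p = 0.178), and the difference was 0.238 percentage points (-0.0818 to 0.564). The change between tissues itself differed between the proteins, with a ratio of odds ratios, Yki over GAF, of 0.0963 (95% Wald interval 0.0527 to 0.176). Without the first 669436 bp of Uextra, a stretch chosen after the values were seen, the Yki odds ratio was 0.304 and the ratio of odds ratios 0.222 (0.115 to 0.430). Peaks are not replicates, and the lists share sites but were treated as independent. The wing disc and embryo lists differ in format, and a difference in peak calling cannot be told apart from one between tissues.

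Over all scaffolds, Yki and GAF stood in opposite order in wing discs and embryos. In wing discs the Yki list had the smaller scaffold share (odds ratio Yki over GAF 0.349, 0.214 to 0.570; Fisher's exact test, adjusted p = 1.81e-05). In embryos the Yki list had the larger share (3.63, 2.56 to 5.15; adjusted Fisher's exact p = 1.48e-13). Yki also exceeded H3K4me3 in embryos, where the scaffolds held 0.600% of H3K4me3 peaks (0.439 to 0.819; odds ratio 4.40, 3.03 to 6.39; adjusted Fisher's exact p = 4.63e-16). No difference was detected between GAF and H3K4me3 in embryos (1.21, 0.792 to 1.86; adjusted Fisher's exact p = 0.389). Split by kind of scaffold, that odds ratio was 8.55 on U and Uextra (adjusted Fisher's exact p = 3.84e-07) and 0.374 on the scaffolds assigned to a chromosome (adjusted Fisher's exact p = 0.00618). Without the first 669436 bp of Uextra, the odds ratio of Yki over GAF in embryos was 1.52 (39 of 3691 Yki peaks and 45 of 6468 GAF peaks; adjusted Fisher's exact p = 0.101), and that of Yki over H3K4me3 was 1.77 (adjusted Fisher's exact p = 0.0257). Yki over GAF in embryos was called on assigned scaffolds (26 of 3678 and 13 of 6436 peaks, odds ratio 3.52, adjusted Fisher's exact p = 0.000938). It was also called without Uextra as a whole (35 of 3687 and 22 of 6445 peaks, adjusted Fisher's exact p = 0.000436). Yki over H3K4me3 was not called without Uextra as a whole (1.72, 1.08 to 2.74; adjusted Fisher's exact p = 0.0507) nor on assigned scaffolds (1.31, 0.790 to 2.19; adjusted Fisher's exact p = 0.433). On the scaffolds assigned to a chromosome, the wing disc contrast of Yki over GAF was not called (20 of 6489 Yki and 16 of 6283 GAF peaks, odds ratio 1.21, adjusted Fisher's exact p = 0.619). The opposite order was thus not seen on assigned scaffolds, where both odds ratios of Yki over GAF were above 1. Without Uextra as a whole the wing disc contrast was not called either (odds ratio 0.848, adjusted Fisher's exact p = 0.768).

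The lists divided the scaffolds in different ways. Of the 22 Yki wing disc peaks, 20 (90.9%) lay on scaffolds assigned to a chromosome and 2 on U and Uextra. The H3K4me3 list showed a like split, with 35 of 39 peaks (89.7%) on assigned scaffolds. The other 3 lists had most of their scaffold peaks on U and Uextra: 45 of 61 GAF wing disc peaks (73.8%), 71 of 97 Yki embryo peaks (73.2%) and 34 of 47 GAF embryo peaks (72.3%). As shares of the whole lists, U and Uextra held 0.0308% (0.00845 to 0.112) of Yki peaks in wing discs, against 1.89% in embryos. They held 0.711% (0.532 to 0.950) of GAF peaks in wing discs, against 0.526% (0.376 to 0.733) in embryos, and 0.0615% (0.0239 to 0.158) of H3K4me3 peaks. On assigned scaffolds alone the Yki difference between tissues was smaller. With U and Uextra left out, they held 20 of 6489 peaks in wing discs (0.308%), against 26 of 3678 in embryos (0.707%; odds ratio 0.434, 0.242 to 0.779; adjusted Fisher's exact p = 0.0106).

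On Uextra the Yki embryo peaks were crowded into its start. Of 62 such peaks, 58 lay between position 3457 and position 669436, and the next Yki embryo peak followed after a gap of 2535254 bp. The same stretch held 1 Yki wing disc peak, 1 GAF wing disc peak, 2 GAF embryo peaks and no H3K4me3 peak. By windows of 100 kb, the stretch from 1 to 100000 held 19 Yki embryo peaks, that from 200001 to 300000 held 17 and that from 100001 to 200000 held 12. Of the other lists, these 3 windows held 1 peak, of GAF in embryos. The median gap between a Yki embryo peak on Uextra and its nearest neighbour of the same list was 455 bp, and 38 of 62 (61.3%, 48.8 to 72.4) had a neighbour within 1000 bp, compared with 30.0% (28.5 to 31.5) of Yki embryo peaks on the arms. The 4 widest scaffold peaks of this list lay in the same stretch, at Uextra 158047 to 159229 (1183 bp), 113954 to 115022 (1069 bp), 115076 to 115868 (793 bp) and 272744 to 273486 (743 bp). Those at 113954 and 115076 were 53 bp apart. A smaller group, noticed in the data, lay on U, where 5 of the 9 Yki embryo peaks fell between 3396198 and 3408062.

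GAF peaks on Uextra were spread out instead. The 37 GAF wing disc peaks ran from position 438817 to position 28946612, and the 25 GAF embryo peaks from 272755 to 28879034. In neither list did a peak on Uextra have a neighbour of the same list within 1000 bp. On U and Uextra together the median gap was 187756 bp for GAF in wing discs and 351943 bp for GAF in embryos, compared with 2209 bp and 1657 bp on the arms. The densest window for GAF in both tissues on Uextra, from 28800001 to 28900000, held 4 GAF wing disc peaks and 3 GAF embryo peaks, with no peak of Yki or H3K4me3.

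**Figure D2:**
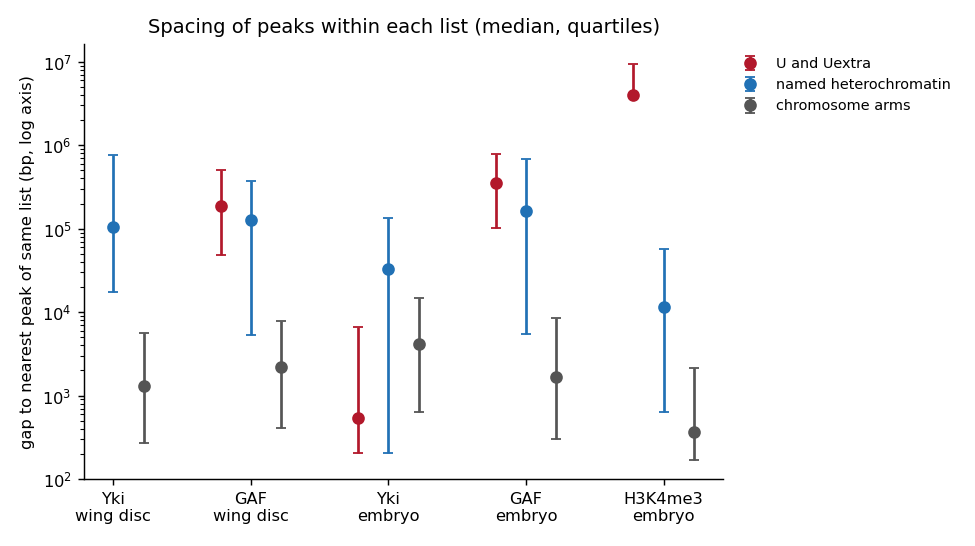
Gap in bp, on a log axis, from each peak to the nearest peak of the same list, as the median (point) with quartiles (bars), on U and Uextra (red), assigned heterochromatin scaffolds (blue) and chromosome arms (grey). Yki embryo peaks on U and Uextra, with a median of 536 bp, are the scaffold group spaced more closely than the arms (4181 bp); Yki wing disc has no red point because U and Uextra held 1 peak each.

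Peaks on the scaffolds coincided with peaks of another list less often than peaks on the arms in 14 of the 20 ordered pairs of lists, and more often in 0 (at least 1 bp shared; Fisher's exact test, adjusted over the 20 pairs at 0.05). At an unadjusted p under 0.05 no pair was higher on the scaffolds either. When the overlap had to cover 50% of both peaks, 4 pairs were lower on the scaffolds and 1 was higher. Of the 14 calls, 3 held under all 7 alternative settings, those of Yki embryo peaks on both GAF lists and on the Yki wing disc list (highest adjusted Fisher's exact p = 0.00426), and each of the other calls was lost under at least 1. On U and Uextra alone the Yki wing disc list had 2 peaks and the H3K4me3 list 4. These are too few for a lower share to be called, so their calls could not be kept there. Among peaks at or above the median width, GAF had 3 scaffold peaks in embryos and 5 in wing discs. The gap was widest for Yki in embryos. Of the 97 Yki embryo peaks on scaffolds, 7 (7.22%, 3.54 to 14.2) met a GAF embryo peak, against 70.5% on the arms (adjusted Fisher's exact p = 2.82e-37). Likewise 7 of the 97 met a GAF wing disc peak (arms 73.9%), 9 met a Yki wing disc peak (9.28%; arms 67.7%) and 13 met an H3K4me3 peak (13.4%; arms 46.0%). In total 77 of the 97 (79.4%, 70.3 to 86.2) met no peak of any other list, compared with 6.74% (5.97 to 7.60) of Yki embryo peaks on the arms. Both kinds of scaffold were low for GAF: 5 of 71 Yki embryo peaks on U and Uextra (7.04%) and 2 of 26 on assigned scaffolds (7.69%) met a GAF wing disc peak, and 6 of 71 (8.45%) and 1 of 26 (3.85%) met a GAF embryo peak. A Yki wing disc peak was met by 1 of 71 on U and Uextra and by 8 of 26 (30.8%) on assigned scaffolds (adjusted Fisher's exact p against the arms = 1.82e-31 and 0.000677). An H3K4me3 peak was met by 3 of 71 on U and Uextra (4.23%; adjusted Fisher's exact p = 3.54e-14) and by 10 of 26 on assigned scaffolds (38.5%), where no difference from the arms was detected (adjusted Fisher's exact p = 0.653). The difference between the kinds of scaffold was not tested.

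For GAF, no difference from the arms was detected where the lists of the 2 tissues were set against each other. Of the 61 GAF wing disc peaks on scaffolds, 32 (52.5%, 40.2 to 64.5) met a GAF embryo peak, against 61.2% on the arms, a difference of -8.75 percentage points (-21.1 to 3.32; adjusted Fisher's exact p = 0.212). In the other direction 32 of 47 GAF embryo peaks (68.1%, 53.8 to 79.6) met a GAF wing disc peak, against 59.2% on the arms (8.91 points, -5.40 to 20.5; adjusted Fisher's exact p = 0.249). The edges of these shared GAF peaks lay close together. Over 32 overlapping pairs on scaffolds the median shift between tissues was 28 bp at the start and 29.5 bp at the end, and 81.0% of the joint span was shared, compared with 164 bp, 172 bp and 60.7% over 4125 pairs on the arms. With a reciprocal overlap of 50%, 29 of 47 GAF embryo peaks on scaffolds (61.7%) met a GAF wing disc peak, against 40.5% on the arms (adjusted Fisher's exact p = 0.0169), and 29 of 61 in the other direction (47.5%, arms 41.5%, adjusted p by Fisher's exact test 0.724). GAF peaks on scaffolds were narrower than on the arms (widths are given with the other lists), and a shift in bp is bounded by the width.

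GAF peaks on scaffolds met Yki peaks seldom. Of the 61 GAF wing disc peaks, 4 (6.56%, 2.58 to 15.7) met a Yki wing disc peak, against 52.3% on the arms (adjusted Fisher's exact p = 1.54e-13), and 7 (11.5%) met a Yki embryo peak, against 36.0%. Of the 47 GAF embryo peaks, 7 (14.9%, 7.41 to 27.7) met a Yki embryo peak, against 32.9% on the arms (adjusted Fisher's exact p = 0.0117), and 2 met a Yki wing disc peak (4.26%; arms 34.9%). Of the 7 alternatives, 1 lost the call of GAF wing disc on Yki wing disc peaks. The calls of GAF wing disc on Yki embryo and of GAF embryo on Yki wing disc peaks were each lost under 3. The call of GAF embryo on Yki embryo peaks was lost under 5 of the 7 alternatives. With an overlap of 50% of both peaks the shares were 8.51% and 8.94% (adjusted Fisher's exact p = 1), and on U and Uextra alone 17.6% and 32.9% (adjusted Fisher's exact p = 0.112). H3K4me3 met 6 of the 61 GAF wing disc peaks (9.84%, arms 37.5%). It met 5 of the 47 GAF embryo peaks (10.6%, arms 24.7%, adjusted Fisher's exact p = 0.0372). The wing disc call was lost under 4 and the embryo call under 5 of the 7 alternatives.

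Yki wing disc peaks on scaffolds met GAF peaks less often than on the arms, and no such difference was detected for Yki peaks of embryos. Of the 22 peaks, 9 (40.9%, 23.3 to 61.3) met a Yki embryo peak, against 38.7% on the arms (adjusted Fisher's exact p = 0.830; difference 2.17 points, -15.5 to 22.6). A GAF wing disc peak was met by 4 (18.2%, 7.31 to 38.5; arms 63.1%; adjusted Fisher's exact p = 4.97e-05), a GAF embryo peak by 2 (9.09%; arms 43.3%; adjusted Fisher's exact p = 0.00150) and an H3K4me3 peak by 7 (31.8%; arms 52.3%; adjusted Fisher's exact p = 0.113). The GAF wing disc call was lost under 3 and the GAF embryo call under 4 of the 7 alternatives. Among these was U and Uextra alone, where no call was possible with 2 Yki wing disc peaks. With an overlap of 50% of both peaks, 13.6% met a GAF wing disc peak (arms 20.3%) and 9.09% a GAF embryo peak (arms 14.4%). A Yki embryo peak was then met by 9.09% (arms 24.3%), and no pair among these was called. With 22 peaks these intervals are wide.

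The share of peaks that met no other list, given here with no test, differed in size between the lists. It was 9 of 22 (40.9%) on scaffolds and 12.5% on the arms for Yki in wing discs, and 27 of 61 (44.3%, 32.5 to 56.7) and 15.2% for GAF in wing discs. For H3K4me3 it was 23 of 39 (59.0%, 43.4 to 72.9) on scaffolds and 42.0% on the arms. For GAF in embryos it was 13 of 47 (27.7%, 16.9 to 41.8) on scaffolds, an interval that holds the 35.5% of the arms.

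**Figure D3:**
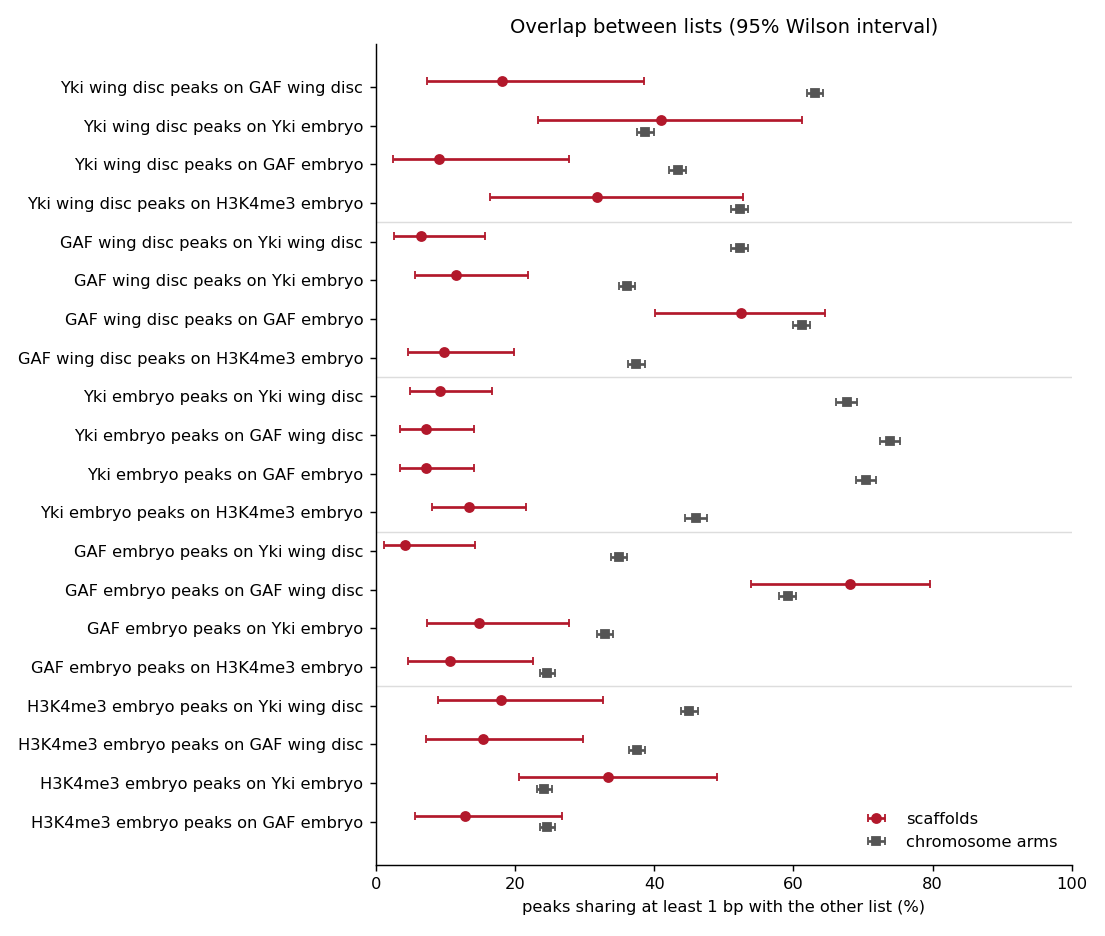
Percent of peaks of the first list that share at least 1 bp with the second list, with 95% Wilson intervals, for all 20 ordered pairs, on scaffolds (red circles) and chromosome arms (grey squares). The red intervals reach the grey points for Yki wing disc peaks on Yki embryo and on H3K4me3, for GAF peaks between tissues in both directions, and for H3K4me3 peaks on Yki embryo and on GAF embryo.

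H3K4me3 peaks on scaffolds met the wing disc lists less often than on the arms when at least 1 bp had to be shared. The call was lost under 2 of the 7 alternatives for Yki of wing discs and under 3 for GAF of wing discs. Among these was U and Uextra alone, where 4 H3K4me3 peaks were too few to keep either call. With an overlap of 50% of both peaks the GAF wing disc shares were 7.69% on scaffolds and 7.35% on the arms. Of the 39 H3K4me3 peaks, 13 (33.3%, 20.6 to 49.0) met a Yki embryo peak, against 24.2% on the arms (adjusted Fisher's exact p = 0.212). Fewer met a Yki wing disc peak (7, 17.9%; arms 45.0%; adjusted Fisher's exact p = 0.00111), a GAF wing disc peak (6, 15.4%; arms 37.5%; adjusted p by Fisher's exact test 0.00697) or a GAF embryo peak (5, 12.8%; arms 24.6%; adjusted p by Fisher's exact test 0.119). When every peak was widened by 250 bp on both sides, 20 of 39 H3K4me3 peaks (51.3%) met a Yki embryo peak, against 33.0% on the arms (adjusted Fisher's exact p = 0.0332).

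Most Yki embryo peaks on assigned scaffolds were at or just beyond the edge of an H3K4me3 peak, a reading chosen after the values were seen and given with no test. Of these 26 peaks, 10 crossed an edge of an H3K4me3 peak, 10 lay beside one within 1000 bp, 6 lay farther away and 0 lay inside one. Within 1000 bp of an H3K4me3 peak, overlaps included, were thus 20 of 26 (76.9%, 57.9 to 89.0), compared with 62.1% of Yki embryo peaks on the arms, a value inside that interval. On the arms 18.7% lay inside an H3K4me3 peak, 25.6% crossed an edge and 16.1% lay beside one within 1000 bp. The 10 that crossed an edge had a median of 20.3% of their width inside H3K4me3. Over all arm peaks that overlapped H3K4me3 it was 76.5%. That arm value includes peaks wholly inside H3K4me3, and a median over arm peaks that crossed an edge was not computed. The regions that follow were picked after their values were seen. On 2LHet, Yki embryo peaks at 33232 to 33551 and 33760 to 33986 lay between H3K4me3 peaks at 31513 to 33000 and 34469 to 36216, and another at 34399 to 34926 crossed the near edge of the second. On 2RHet, 3 Yki embryo peaks at 2900398 to 2900611, 2900800 to 2901274 and 2901446 to 2901702 preceded the H3K4me3 peak at 2901790 to 2903641, the nearest by 87 bp. On 3RHet, Yki embryo peaks at 1808527 to 1808737, 1823976 to 1824198 and 1899210 to 1899491 stood at the end with the higher coordinates of an H3K4me3 peak, the first 2 across its edge and the last 63 bp beyond it.

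Differences between the lists in this were not tested. Of 20 Yki wing disc peaks on assigned scaffolds, 11 (55.0%, 34.2 to 74.2) lay within 1000 bp of an embryo H3K4me3 peak, compared with 62.6% on the arms, and 3 of them lay inside one. GAF peaks on assigned scaffolds lay within 1000 bp of H3K4me3 in 5 of 16 cases in wing discs (31.3%, 14.2 to 55.6; arms 45.5%) and in 3 of 13 cases in embryos (23.1%, 8.18 to 50.3; arms 33.5%). On U and Uextra, 3 of 71 Yki embryo peaks (4.23%) were that close, as were 3 of 45 GAF wing disc peaks and 3 of 34 GAF embryo peaks. No H3K4me3 list of wing discs was used.

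**Figure D4:**
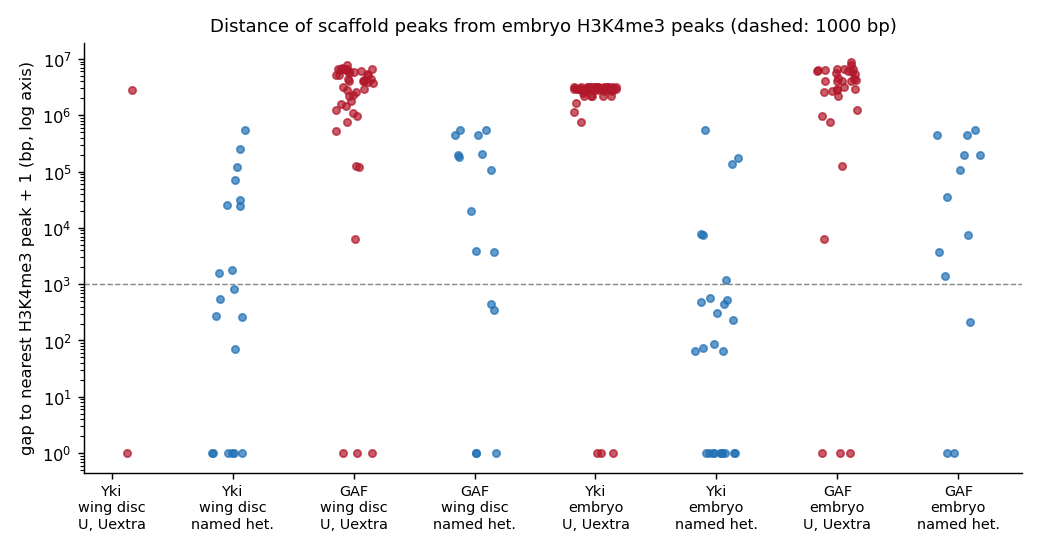
Gap in bp plus 1, on a log axis, from each scaffold peak of Yki or GAF (1 point each) to the nearest embryo H3K4me3 peak, on U and Uextra (red) and on assigned scaffolds (blue). Points at the bottom overlap H3K4me3, and for Yki embryo peaks on assigned scaffolds 20 of 26 points lie at or under the dashed line at 1000 bp.

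By their median, scaffold peaks were narrower than arm peaks in all 5 lists, which is given with no test. The median width was 292.5 bp on scaffolds and 418 bp on the arms for Yki in wing discs, and 331 bp and 642 bp for GAF in wing discs. In embryos it was 320 bp on scaffolds and 444 bp on the arms for Yki, 330 bp and 586 bp for GAF, and 1132 bp and 1263.5 bp for H3K4me3. At or above the median width of their own list were 5 of 22 Yki and 5 of 61 GAF scaffold peaks in wing discs, and 23 of 97 Yki, 3 of 47 GAF and 16 of 39 H3K4me3 scaffold peaks in embryos. GAF peaks on U and Uextra varied little in width: the quartiles were 277 and 363 bp in wing discs and 226.25 and 336 bp in embryos. The 4 H3K4me3 peaks there measured 206 to 801 bp, whereas the 35 on assigned scaffolds had a median of 1148 bp. Among peaks at or above the median width of their list, 6 of the 20 ordered pairs still met less often on scaffolds, with 3 to 23 scaffold peaks per list.

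In the wing disc lists each peak carries the authors' score, whose scale is not given and which ranks peaks within its list. GAF scaffold peaks spread over the middle of their list: 31 of 61 scored at or above the list median of 34.705, and 6 of 61 at or above its upper quartile of 159.71. On U and Uextra 26 of 45 GAF peaks were at or above that median, and on assigned scaffolds 5 of 16. Yki scaffold peaks ranked lower, with 7 of 22 at or above the list median of 13.63 and 3 at or above the upper quartile of 20.17. On chromosome 4, 9 of 42 Yki and 17 of 41 GAF wing disc peaks were at or above the median score of their list. The 9 Yki wing disc peaks that met a Yki embryo peak had a median score of 16.13, and the 13 that did not had 9.49. The 32 GAF wing disc peaks that met a GAF embryo peak had a median score of 38.6, and the other 29 had 29.29. Scores were not split in this way on the arms, so neither difference can be called particular to the scaffolds.

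**Figure D5:**
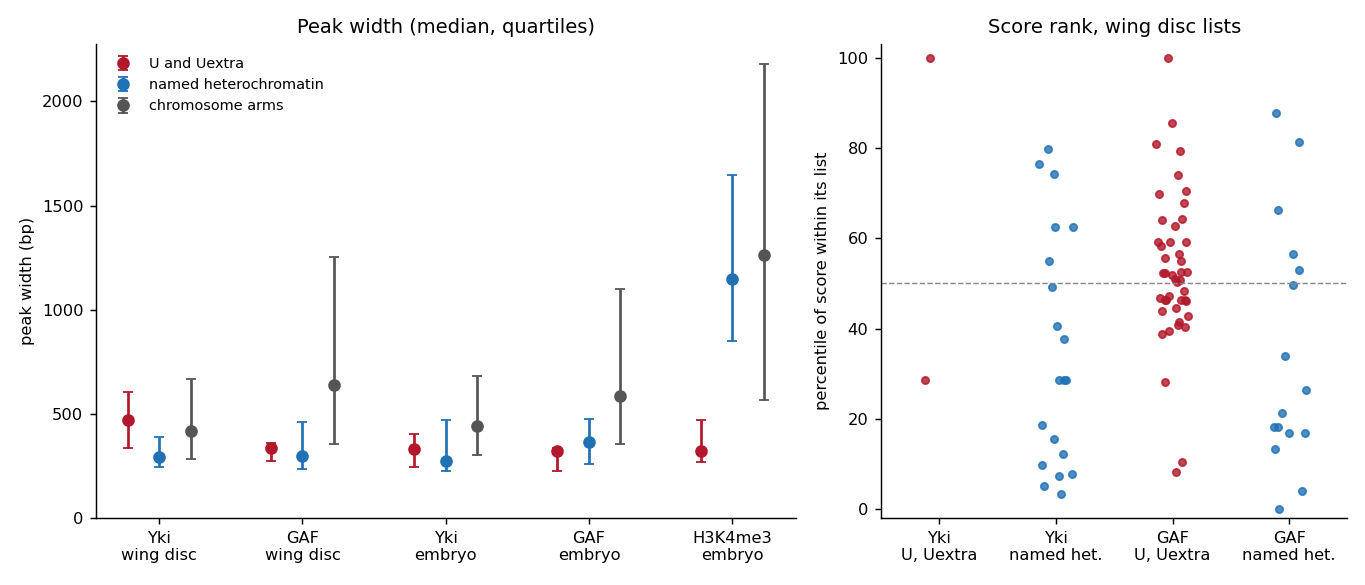
The left panel shows peak width in bp (median with quartiles) on U and Uextra (red), assigned scaffolds (blue) and chromosome arms (grey) for the 5 lists. The right panel shows the percentile of each scaffold peak's score within its own wing disc list, where 1 Yki peak (rank 10 of 6491) and 1 GAF peak (rank 4 of 6328), both on Uextra, stand near the top.

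Touching peaks of the 5 lists merged into 197 scaffold sites, of which 149 held 1 list, 36 held 2, 4 held 3, 7 held 4 and 1 held all 5. The largest class was Yki in embryos alone (77 sites). It was followed by sites of the GAF wing disc list alone (27), those of both GAF lists and no other (25), H3K4me3 alone (23), GAF in embryos alone (13) and Yki in wing discs alone (9). Of the 25 sites with GAF in both tissues and nothing else, 19 lay on U or Uextra.

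The site with all 5 lists lay on 3LHet from 1395167 to 1397066. GAF peaks of wing discs (1395167 to 1396047, score 228.7, rank 1184 of 6328) and of embryos (1395167 to 1396010) occupied its first part, the H3K4me3 peak (1395710 to 1396464) its middle, and Yki peaks of wing discs (1396741 to 1397049, score 22.07, rank 1321 of 6491) and of embryos (1396448 to 1397066) its end. GAF overlapped the start of the H3K4me3 peak, Yki of embryos crossed its end and Yki of wing discs lay beyond it, and no GAF peak overlapped a Yki peak there.

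At 2 other sites Yki and GAF peaks of both tissues overlapped without H3K4me3. The first lay on Uextra from 438817 to 439844, where the GAF wing disc peak had a score of 811.78 (rank 4 of 6328) and the Yki wing disc peak at 439034 to 439776 a score of 78.16 (rank 10 of 6491). The GAF embryo peak at 438878 to 439828 (951 bp) was the widest GAF embryo peak on the scaffolds, and the Yki embryo peak at 439368 to 439707 lay inside it. The second lay on 3RHet from 2473750 to 2474950, with a GAF wing disc score of 308.19 (rank 781) and a Yki wing disc score of 14.45 (rank 2925). Its GAF embryo peak spanned 2473805 to 2474570 and its Yki embryo peak 2474010 to 2474244.

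On Uextra 3 narrow sites held GAF of both tissues, Yki of embryos and H3K4me3 together, within 336 to 416 bp each. They lay at 3204669 to 3205046, 18119385 to 18119800 and 22164632 to 22164967, with GAF wing disc scores of 72.11, 73.9 and 22.82. The site at 17373637 to 17373993 held the same lists without H3K4me3 (GAF wing disc score 54.44). These 4 sites held every Yki embryo peak on Uextra beyond the crowded start, and 3 of them held every H3K4me3 peak on Uextra. None had a Yki wing disc peak.

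The other sites with 3 or more lists lay on assigned scaffolds, and each of them held H3K4me3. On 2LHet, 34299 to 36216 held Yki and GAF of wing discs (scores 10.56 and 12.14) and Yki of embryos. On XHet, 60343 to 63164 held Yki and GAF of wing discs (20.64 and 11.71) and GAF of embryos, under the second widest H3K4me3 peak of the scaffolds (2822 bp). Yki of both tissues met H3K4me3 without GAF at 2RHet 470172 to 472200, 3LHet 2397454 to 2399733 and XHet 84548 to 86127, with Yki wing disc scores of 16.13, 7.5 and 16.13. The widest H3K4me3 peak of the scaffolds, on 3LHet from 594553 to 598235 (3683 bp), met no peak of another list. Sites with 2 lists included Yki of embryos with H3K4me3 at 2RHet 3199096 to 3200920 and 3LHet 2189887 to 2191410, and GAF of both tissues at U 5630337 to 5631474, where the GAF wing disc score was 280.27 (rank 916).

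The remaining wide sites with 2 lists were of several kinds. Yki of wing discs met H3K4me3 at 3RHet 1704972 to 1706268 and at U 1178877 to 1179677, the only Yki wing disc peak and the only H3K4me3 peak on U. Yki of embryos met H3K4me3 at 3RHet 1807463 to 1808737 and 1823028 to 1824198, in the window from 1800001 to 1900000 that held 4 H3K4me3 peaks, 5 Yki embryo peaks and 1 GAF wing disc peak. Yki of both tissues met at 3LHet 458823 to 459505, where the Yki wing disc score of 19.71 was the fourth highest on the scaffolds, and Yki and GAF of embryos met at Uextra 272744 to 273486. GAF of both tissues met at Uextra 28604010 to 28604569, with a GAF embryo peak of 504 bp. The GAF embryo peak of next width, 502 bp at 3LHet 715367 to 715868, also lay on a GAF wing disc peak, as did that at U 6904755 to 6905090, whose GAF wing disc peak scored 222.17 (rank 1215).

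Outside Uextra the fullest windows of 100 kb were less crowded. Yki of wing discs had 3 peaks on 2RHet between 400001 and 500000 and 3 on 3LHet between 600001 and 700000, with scores of 7.82 to 16.13 and 8.31 to 11.68, and 2 on 2RHet between 100001 and 200000. GAF of wing discs had 2 peaks in each of 2 neighbouring windows of 3RHet, from 2300001 to 2500000. GAF of embryos had 3 peaks on U between 5200001 and 5300000. The first 100000 bp of XHet drew all 5 lists, with 2 Yki and 2 GAF peaks of wing discs and 1 Yki, 3 GAF and 4 H3K4me3 peaks of embryos. H3K4me3 had 3 peaks on 3LHet between 500001 and 600000.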

How the data were processed

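Peak positions (start and end in bp, counted from 0 as deposited and from 1 in the text) and, for the wing disc lists, a score per peak are the authors' own, from the 5 deposited lists. CASAVA 1.7.0, BWA, Bowtie and the build dm3 are named, without roles, per the submitters' processing notes. Tagmented DNA went through 12 cycles of PCR, per the labels' protocols. Peak names of the wing disc lists start with the name of the caller MACS, per the file contents. The caller of the embryo lists, thresholds, the way replicates were combined, the use of input and the treatment of reads that match several places, which bears on repeat-rich scaffolds, were not given in the sources used here. Depth is unknown. Input libraries were not used, since each list is of an antibody. No genome or annotation of dm3 was used, so genes and sequences are not given.

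Overlaps, gaps and merged sites were computed in Python 3.11.15 (scipy 1.17.1, pandas 2.3.3, numpy 2.4.6; figures with matplotlib 3.10.9) and tested on simulated lists. Alternatives changed the overlap rule, the scaffolds taken, list length and the joining of close peaks. Overlap means at least 1 bp shared, a gap runs between nearest edges, and merged sites join touching peaks. Shares have Wilson intervals, differences Newcombe intervals and odds ratios Wald intervals, all at 95%. Fisher's exact tests were two-sided and adjusted by the Benjamini-Hochberg method. Regions were named by rule, as the 5 scaffold peaks of highest score or greatest width per list, sites with 3 or more lists, the 10 widest sites with 2 and the 3 fullest windows of 100 kb per list. Members and tests were chosen with earlier results of these data known.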

Additional observations from a re-analysis of the deposited data

Results flagged for a closer look

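The change in scaffold share between tissues differed between the proteins. The ratio of odds ratios (wing disc over embryo, Yki over GAF) was 0.0963 (0.0527 to 0.176), from 22 of 6491 Yki peaks in wing discs against 97 of 3749 in embryos, and 61 of 6328 GAF peaks in wing discs against 47 of 6470 in embryos. This comparison was chosen after the counts were seen, and its interval covers counting error only. Over the other 9 definitions of the scaffold share the ratio stayed below 1, between 0.00885 and 0.344. The lowest value came from lists cut to 3749 peaks on unlike measures, by score in wing discs and by width in embryos. With all lists cut by width the ratio was 0.0503. The part that differences in peak calling or in the treatment of repeated sequence have in it was not tested.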

How the results depend on the processing

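No paired analysis was possible because each deposited list is 1 set of peaks without replicate columns, and for the same reason no replicate could be left out. Depth is unknown. For scaffold shares, the Yki difference between tissues kept its direction and call under all settings with a test (odds ratios 0.0159 to 0.434). GAF, wing disc over embryo, reached 9.10 (adjusted Fisher's exact p = 5.68e-09) when each list was reduced to its 3749 highest-ranking peaks. These were ranked by score in wing discs and by width in embryos, so the 2 lists were cut on unlike measures. Among the 3749 widest peaks of both GAF lists the odds ratio was 1.40 (7 against 5 peaks, adjusted Fisher's exact p = 0.929). Yki over GAF in wing discs was 1 among the 3749 widest peaks, 1.21 on assigned scaffolds and 0.848 without Uextra, none of them called. The embryo lists carry no score, so for them the highest-ranking and the widest peaks were the same set. In embryos Yki over GAF was 19.9 among the widest peaks and 1.94 by 10 kb windows. It was 3.52 on assigned scaffolds, 1.52 without the start of Uextra and 6.55 by covered bases. At 19.9 the Yki list, the shortest, was not cut, whereas GAF kept 5 of its 47 scaffold peaks, which were narrow for their list. Yki over H3K4me3 was 1.31 on assigned scaffolds and 1.72 without Uextra, not called. GAF over H3K4me3 was 0.216 among the widest peaks, 8.55 on U and Uextra, 0.374 on assigned scaffolds and 0.622 by covered bases. The causes were not tested.

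Pairs of lists with less overlap on scaffolds, 14 of 20, numbered 4 with a reciprocal overlap of 50%, 9 with midpoints within 500 bp, 8 on U and Uextra, 9 on assigned scaffolds and 6 among wide peaks, where fewer peaks enter. Pairs with more overlap, 0, numbered 1 with the reciprocal overlap (GAF embryo on GAF wing disc) and 1 with widened peaks (H3K4me3 on Yki embryo). Among the 14 called pairs, the difference in points turned, without a call, for Yki wing disc on GAF embryo (6.65, U and Uextra), GAF embryo on Yki wing disc (25.3, wide peaks), GAF embryo on H3K4me3 (0.747, reciprocal) and H3K4me3 on GAF wing disc (0.339, reciprocal; 37.5, U and Uextra). Among the pairs not called, it turned for Yki wing disc on Yki embryo (-15.2, reciprocal; -39.0, wide peaks), GAF wing disc on GAF embryo (6.05, reciprocal), H3K4me3 on GAF embryo (2.09, reciprocal; 1.40, midpoints; 50.4, U and Uextra) and H3K4me3 on Yki embryo (-0.734, midpoints; -7.49, wide peaks). The turns on U and Uextra rest on few peaks. There 1 of 2 Yki wing disc peaks met GAF of embryos, and 3 of 4 H3K4me3 peaks met each GAF list. The ratio of median widths, scaffold over arm, was 1.13 for the 2 Yki wing disc peaks on U and Uextra and 0.258 for the 4 H3K4me3 peaks there. It was 0.362 by means for GAF in embryos. The share of GAF wing disc peaks at or above the median score was 31.3% on assigned scaffolds. Merging sites within 500 bp gave 51 sites with 2 or more lists and 16 with 3 or more, against 48 and 12.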
